A study of Mus musculus with 24 samples.

Results

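Head-to-head, or bidirectional, promoters are stretches of DNA from which neighboring genes are transcribed away from each other. Pairs of protein-coding genes on opposite strands, whose diverging transcription starts lay at most 1000 bp apart, were taken from the curated (NM) RefSeq transcripts of the mouse autosomes (mm10). The promoter ran from start to start with 500 bp added on each side. In all, 907 pairs were found. They held 1801 of the 20021 autosomal protein-coding genes with such a transcript (9.0%), and 13 of these genes belonged to more than 1 pair. The rule used only the annotation, not the ChIP-Seq data. The promoters were compared with 17945 single promoters, the region 500 bp to each side of the 5′-most start of a gene that is in no pair and has no start of another gene, on either strand, within 1000 bp. The remaining 275 genes were in neither class.

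In mammalian genomes many genes are arranged in this way. The DNA between the starts is usually short, open and rich in CpG dinucleotides, often lacks a TATA box, and is shared by the transcription machinery of both genes. The genes often serve the basic upkeep of the cell, such as DNA repair, mitochondrial function, protein folding and, in the histone clusters, chromatin itself. Acetylation of histone H3 at lysine 27 (H3K27ac) is found at active promoters and enhancers, on the nucleosomes next to the open stretch rather than in it.

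H3K27ac ChIP-Seq was performed on myofibers isolated from the quadriceps of C57BL/6 mice (C57BL/6J in the study's methods), wild-type animals that were 10 weeks old when treatment began. Both sexes received either vehicle or, once a week over 4 weeks, 5 injections of prednisone, a synthetic glucocorticoid, at 1 mg/kg, and treated animals were studied 4, 6 or 8 days after the last injection. The labels give no day for the vehicle groups. There were 8 groups, with 2 libraries of H3K27ac and 1 of input in each, and the processed data were 1 list of HOMER peaks per group. Single libraries were not analysed here, and no difference between sexes, treatments or days could be tested. The way in which the 2 libraries entered a list is not given in the sources used here.

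Depth, as recovered from the normalized tag counts, was between 7.52 M (megatags) for male day 4 and 50.5 M for male day 6, and the lists held between 17482 peaks (male day 4) and 123249 (female day 6). Of 10 myofiber marker genes, 7 to 9 had a peak at a start in the lists other than male day 4, where 3 had one. Satellite cell, fibroblast, endothelial, immune and adipocyte markers (13 in all) had a peak in 1 case in vehicle-treated females and in 10 in females at day 8, against 4 in vehicle-treated males and 0 in males at day 4. The part of list length, depth and other cell types in the results was not tested, except where values are given beside them.

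The median distance between the starts was 149 bp (interquartile range 74.5–296 bp), and 688 of the 907 pairs (75.9%) had their starts within 300 bp of each other. Few lay near the limit of 1000 bp. The pairs just inside it were Tns1/Rufy4 (993 bp, peak in 2 lists), Haghl/Ccdc78 (994 bp, 4 lists) and Zfyve26/Rad51b (1000 bp, 8 lists). Just outside it were Ddias/Prcp (1006 bp), Sgsm2/Tsr1 (1011 bp) and Bet1l/Ric8a (1014 bp), each with a peak in 8 lists.

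The complete sequence between the starts is short enough to read in most pairs. The sequences below are the plus strand of mm10 from 1 base after the start of the gene on the minus strand, named first, to 1 base before the start of the gene on the plus strand. Capitals mark the motifs searched for in this work, which are spelled out further on. Pairs in which another curated transcript runs across the interval (106 of 905 with any base between the starts) are not shown. The first 4 are textbook bidirectional promoters that differ in how many lists had a peak, and the first 3 include genes of the mitochondrion.
Hadha/Hadhb (chr5:30154981-30155252, 8 lists with a peak): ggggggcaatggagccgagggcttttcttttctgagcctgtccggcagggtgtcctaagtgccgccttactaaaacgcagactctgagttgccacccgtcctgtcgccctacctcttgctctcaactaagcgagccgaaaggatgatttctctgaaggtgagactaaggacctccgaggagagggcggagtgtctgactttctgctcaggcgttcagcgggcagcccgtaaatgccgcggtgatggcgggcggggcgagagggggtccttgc
Mrps12/Sars2 (chr7:28741822-28741967, 8 lists with a peak): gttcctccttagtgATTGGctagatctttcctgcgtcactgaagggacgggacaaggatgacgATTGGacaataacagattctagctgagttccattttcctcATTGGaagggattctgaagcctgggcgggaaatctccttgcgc
Sirt3/Psmd13 (chr7:140882310-140882393, 6 lists with a peak): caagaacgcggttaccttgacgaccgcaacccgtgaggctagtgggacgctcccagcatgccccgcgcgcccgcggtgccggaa
Col4a4/Col4a3 (chr1:82586850-82586920, 3 lists with a peak): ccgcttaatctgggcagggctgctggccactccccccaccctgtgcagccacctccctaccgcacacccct
Jmjd6/Mettl23 and Vmp1/Ptrh2 are shown because they were among the 5 pairs with the highest mean score over the 8 lists. Their letters include a CCAAT box read on both strands and an ETS motif.
Jmjd6/Mettl23 (chr11:116843450-116843514, 8 lists with a peak): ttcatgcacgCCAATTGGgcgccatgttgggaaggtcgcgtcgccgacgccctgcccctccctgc
Vmp1/Ptrh2 (chr11:86683837-86684073, 8 lists with a peak): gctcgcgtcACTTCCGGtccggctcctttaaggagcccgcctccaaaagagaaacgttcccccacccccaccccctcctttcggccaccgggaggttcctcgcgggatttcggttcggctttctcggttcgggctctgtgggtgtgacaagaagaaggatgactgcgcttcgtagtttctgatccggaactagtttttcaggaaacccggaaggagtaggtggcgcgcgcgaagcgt
For contrast, the next 3 belonged to pairs without a peak in any list.
Wfdc8/Wfdc6b (chr2:164613627-164613699, 0 lists with a peak): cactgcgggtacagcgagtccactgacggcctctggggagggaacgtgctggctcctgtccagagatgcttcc
Slc30a3/Dnajc5g (chr5:31108245-31108318, 0 lists with a peak): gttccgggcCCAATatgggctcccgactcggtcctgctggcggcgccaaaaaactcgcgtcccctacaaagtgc
Il11/Tmem190 (chr7:4782858-4782939, 0 lists with a peak): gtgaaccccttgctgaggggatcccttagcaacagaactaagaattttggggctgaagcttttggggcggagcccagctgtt
The observed over expected CpG ratio of the printed stretch, which is near 1 where CpG is not depleted, was 1.20 in Sirt3/Psmd13 and 1.08 in Vmp1/Ptrh2. It was 0.290 in Col4a4/Col4a3 and 0.175 in Il11/Tmem190. The ratio alone did not separate pairs with and without peaks, as Slc30a3/Dnajc5g had 0.959 in these 74 bases.

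Head-to-head promoters held an H3K27ac peak more often than single promoters in all 8 lists. In vehicle-treated females, 515 of 907 held a peak (56.8%, 95% confidence interval 53.5%–60%), against 22.6% of single promoters and 25.8% of all 20021 starts. After weekly prednisone, female myofibers had a peak at 834 pairs at day 4 (92.0%, against 47.6% of single promoters and 51.9% of all starts). At day 6 these were 884 pairs (97.5%, against 64.5% and 67.8%), and at day 8 they were 871 (96.0%, against 56.7% and 60.6%). Nearly every head-to-head promoter was thus marked in the female lists after treatment.

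In vehicle-treated males, 824 pairs held a peak (90.8%, 88.8%–92.6%), against 46.8% of single promoters and 51% of all starts. The male lists after treatment were shorter, with 572 pairs at day 4 (63.1%, against 26% of single promoters and 29.5% of all starts). Day 6 gave 574 pairs (63.3%, against 25.9% and 29.5%) and day 8 gave 623 (68.7%, against 29.9% and 33.7%). The difference between pairs and single promoters was 38.5 percentage points on average (range 32.9–44.4). It was above 0 in 8 of 8 lists (two-sided exact sign-flip permutation test over the lists, p = 0.00781, the smallest this design can give, and 0.0109 adjusted for the 7 tests made). All lists read the same promoters, so this test covers the spread between lists only, and confidence intervals cover counting error only.

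**Figure D1:**
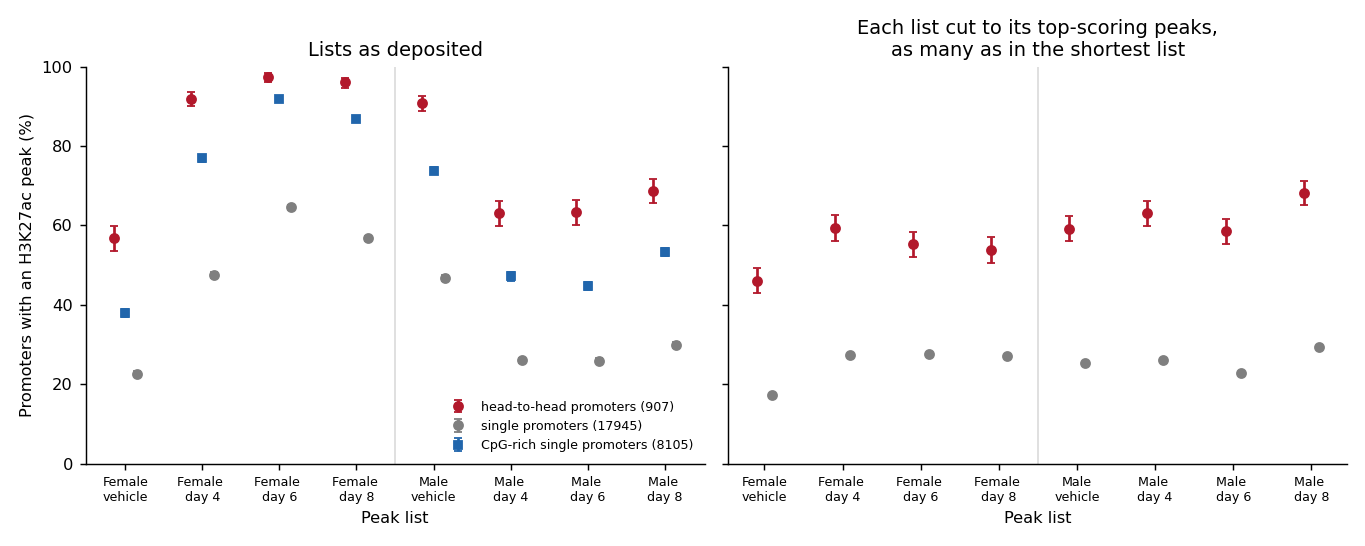
Percentage of promoters with an H3K27ac peak in each list (points, Wilson 95% confidence intervals), with the lists as deposited on the left and with only the 17482 top-scoring peaks of each list on the right. Head-to-head promoters lie above single promoters in all 8 lists on both sides, and the gap between vehicle and later lists is smaller on the right, where females are at 46.1% (vehicle) to 59.4% (day 4) and males at 58.5% (day 6) to 68.1% (day 8).

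A region with 2 starts is wider than one with 1 start. In windows of the same length, 500 bp to each side of the midpoint of a pair or of a single start, the mean difference was 38.0 points (range 32.9–44.2, higher in 8 of 8 lists, exact p = 0.00781). Counted per start, the base at which transcription begins lay under a peak for 33.6% of the 1814 starts of pairs in vehicle-treated females and for 95.8% at female day 6, against 11.9% and 58.1% of single starts. Over the 8 lists this difference was 34.3 points on average. A peak over both starts of a pair was counted for each of them. At least 1 of 2 independent single promoters would hold a peak in 40.2% (vehicle-treated females) to 87.4% (female day 6) of cases by arithmetic alone, below the pairs' own percentages in these lists.

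Base composition differed between the classes. By the Gardiner-Garden limits (GC content of at least 50% and a CpG ratio of at least 0.6 over the 1 kb window), 783 of the 907 head-to-head promoters were CpG-rich (86.3%), against 8105 of the 17945 single promoters (45.2%). The median CpG ratio was 0.778 in pairs and 0.560 in single promoters, and the median GC content was 60.5% and 55.4%. Among CpG-rich promoters, the difference in the share with a peak was 16.9 points (range 6.92 at female day 6 to 21.3 in vehicle-treated females, higher in 8 of 8 lists, exact p = 0.00781, adjusted 0.0109). For instance, 59.3% of the CpG-rich pairs and 37.9% of the CpG-rich single promoters held a peak in vehicle-treated females. The 124 CpG-poor pairs differed more from the 9840 CpG-poor single promoters, by 39.5 points (range 24.6–51.9, higher in 8 of 8 lists, exact p = 0.00781). In vehicle-treated males, 72.6% of CpG-poor pairs (64.1%–79.7%) held a peak, against 24.5% of CpG-poor single promoters.

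For CpG-rich promoters the arithmetic of 2 independent single promoters came to 61.5% in vehicle-treated females, 93.1% in vehicle-treated males and 72.0% at male day 4. The CpG-rich pairs had 59.9%, 93.6% and 67.0%, over the region from start to start. The share of CpG-rich pairs with at least 1 peak was thus near or below that of 2 such single promoters. Per start, 35.6% of the starts of CpG-rich pairs lay under a peak in vehicle-treated females, against 19.6% of CpG-rich single starts. The order was the same in the other 7 lists. A peak over both starts of a pair counts for each, so the count per start cannot tell which of the genes a peak belongs to.

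The peaks at head-to-head promoters also ranked higher within their lists. The findPeaks score, a tag number, was turned into a percentile among all peaks of the list, and the best peak of each promoter was taken. The median percentile was 85.8 at pairs and 76.3 at single promoters in vehicle-treated females, 91.7 and 81.1 in vehicle-treated males, and 77.3 and 59.0 at male day 4. Many peaks of a list share a score, so the percentiles move in steps. In vehicle-treated females the quartiles were 58.2 and 94.2 in both classes. At male day 4 the median of single promoters, 59.0, was also the lower quartile of pairs. The mean difference of the medians was 8.60 percentile points (range 3.12–18.4, higher in 8 of 8 lists, exact p = 0.00781, adjusted 0.0109). Beside CpG-rich single promoters the medians were equal in vehicle-treated females, at female day 4 and at male day 4, and higher at pairs in the other 5 lists.

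Fold over input did not separate the classes in the same way. In females the median fold at pairs was 18.7 at day 6 and 20.7 at day 8, against 11.7 and 14.9 at single promoters. In the other 6 lists the medians lay within 0.58 of each other, for example 6.49 and 6.77 in vehicle-treated females and 3.52 and 3.89 at male day 6. The mean difference was 1.62 (range −0.375 to 7.04, higher in 4 of 8 lists, exact p = 0.219, adjusted 0.255) and did not pass the test.

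Where a pair had a peak, the same peak usually lay over the starts of both genes. This held for 855 of 884 pairs at female day 6 (96.7%), 838 of 871 at female day 8 (96.2%) and 746 of 834 at female day 4 (89.4%). It was 656 of 824 in vehicle-treated males (79.6%), between 58.2% and 67.1% in males after treatment, and 252 of 515 in vehicle-treated females (48.9%). Separate peaks over each start were seen at 0 or 1 pair per list. The starts lay a median of 149 bp apart, less than the median peak length in any list. Separate peaks thus had little room, and their count cannot tell whether the genes share 1 stretch of acetylation. Peaks that covered neither start but lay within the added 500 bp made up 30.5% of the pairs with a peak in vehicle-treated females and 23.2% at male day 6, against 0.339% at female day 6. The median length of all peaks at pairs was 787 bp at male day 4, 860 bp in vehicle-treated females, 1127 bp at male day 6 and 2162 bp at female day 8.

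Averaged over all pairs, coverage by peaks was nearly symmetric around the midpoint. At 1000 bp on the minus and plus side it was 20.8% and 23.5% in vehicle-treated males, and 50.1% and 53.5% at female day 8. Single promoters were covered more on the transcribed side, with 8.92% at 1000 bp upstream and 16.2% at 1000 bp downstream in vehicle-treated males. Their highest coverage lay 200 to 400 bp downstream of the start. In vehicle-treated females coverage at pairs was 34.0% at the midpoint and 36.4% at 150 bp from it, where it was highest. Pairs were laid out by genome strand, so that leanings of single pairs toward either gene would cancel in the average. The symmetry of the average therefore cannot tell whether a given pair was covered evenly.

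**Figure D2:**
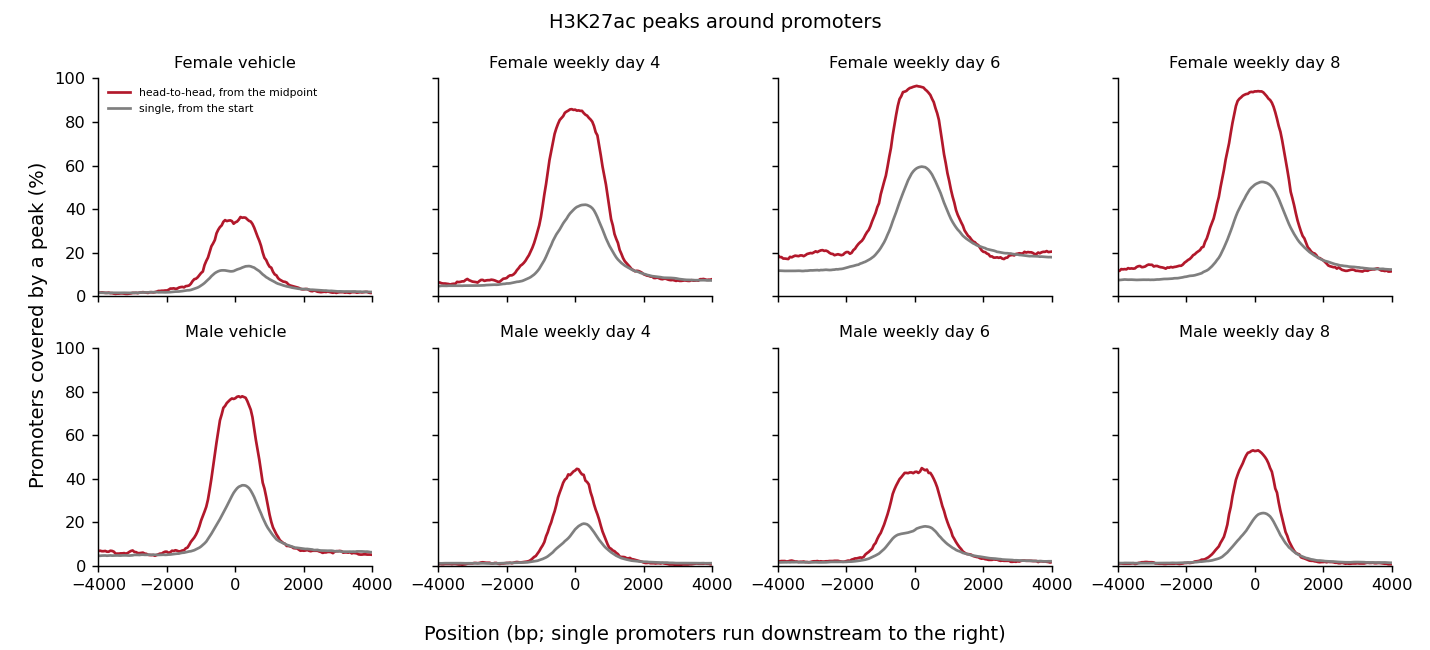
Percentage of promoters covered by a peak at each position, for head-to-head promoters around the midpoint between the starts (red) and for single promoters around the start with the transcribed side to the right (grey), in each of the 8 lists. The red curves, averages over pairs laid out by genome strand, are nearly symmetric. They reach 96.6% at female day 6 and 36.4% in vehicle-treated females. The grey curves lean to the right.

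Whether a peak was present did not differ detectably with the distance between the starts. In windows of equal length, the 312 pairs with starts up to 100 bp apart and the 146 pairs with starts over 400 bp apart differed by −0.464 points on average (range −4.94 to 4.64, higher at short distance in 3 of 8 lists, exact p = 0.719, adjusted 0.719). For example, 53.5% of the closest and 58.2% of the farthest pairs held a peak in vehicle-treated females, and 92.3% and 87.7% did in vehicle-treated males. Of the closest pairs 88.8% were CpG-rich and of the farthest 71.9%, and the comparison did not take this into account. The direction was not stable. The average became 0.140 without the vehicle-treated female list and 0.176 without the male day 6 list.

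The closer the starts, the more often the same peak lay over both. In vehicle-treated females 1 peak lay over both starts in 61.1% of the closest pairs with a peak and in 34.8% of the farthest. At male day 4 these were 78.7% and 36.0%, and at female day 6 they were 99% and 87.4%. A peak of a given length covers close starts more readily than distant ones. The trend therefore cannot tell whether closer genes share acetylation more often.

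**Figure D3:**
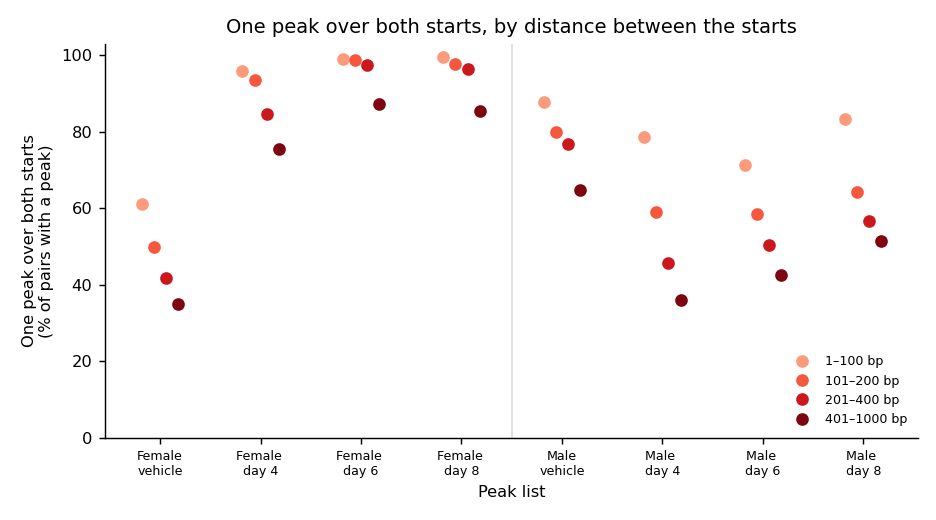
Percentage of pairs with a peak in which 1 peak covers both starts, by the distance between the starts (shades of red) and by list. The points fall with distance in all 8 lists, from 61.1% to 34.8% in vehicle-treated females and from 99% to 87.4% in females at day 6. A peak of a given length covers close starts more readily than distant ones.

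Over the 8 lists, 314 head-to-head promoters held a peak in every one (34.6%), against 12.1% of single promoters, 23% of CpG-rich single promoters and 14.1% of all starts. A further 208 lacked it in 1 list only, which was vehicle-treated females for 72, male day 4 for 66, male day 6 for 45 and male day 8 for 23. The remaining 2 of these lacked it at female day 4 or day 6. A peak in just 1 list was seen at 16 pairs, and for 13 of these the list was female day 6, the longest. Only 18 pairs had a peak in none (1.98%), against 29.9% of single promoters, 5.38% of CpG-rich single promoters and 27.1% of all starts. The count of 314 depends on how a peak is assigned, and it was 51 when all lists were reduced to the same number of peaks and 66 when a fold over input of at least 4 was required.

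**Figure D4:**
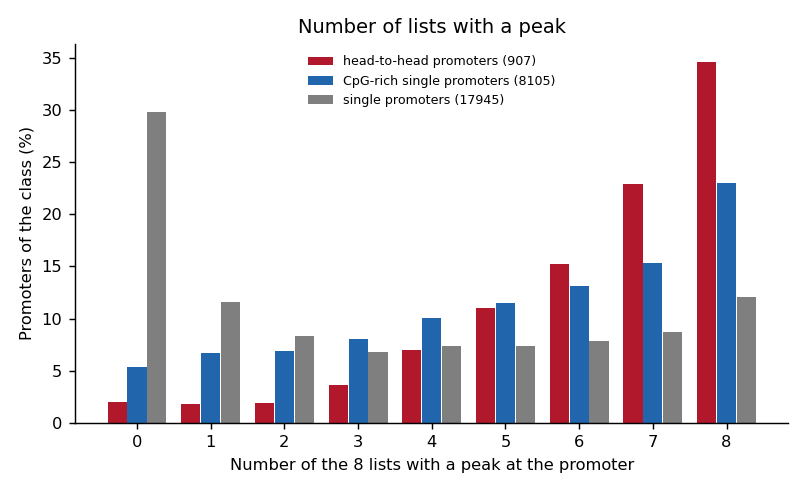
Percentage of head-to-head (red), CpG-rich single (blue) and all single promoters (grey) by the number of the 8 lists in which they held a peak. Pairs with a peak in all 8 lists make up 34.6% of head-to-head promoters. Promoters without any peak make up 29.9% of single promoters, 5.38% of CpG-rich single promoters and 1.98% of pairs.

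In females, peaks present in vehicle were nearly all found again after weekly prednisone. Of the 515 pairs with a peak in vehicle, 513 held one at day 4, 514 at day 6 and 515 at day 8 (99.6%, 99.8% and 100%). Single promoters with a peak in vehicle were close to this, at 96.8%, 98.0% and 98.2%. Of the 392 pairs without one in vehicle, 321 held one at day 4 (81.9%), 370 at day 6 (94.4%) and 356 at day 8 (90.8%). Of single promoters without one in vehicle, 33.2%, 54.7% and 44.6% did. These shares do not take base composition into account. Among CpG-rich single promoters, 37.9% held a peak in vehicle-treated females and 76.9%, 91.9% and 86.7% at female days 4, 6 and 8. In all, 319 pairs had no peak in vehicle and one at days 4, 6 and 8 (35.2%), against 25.1% of all starts and 38.3% of CpG-rich single promoters. The vehicle list was the shortest of the female lists and had the lowest depth of them. With all lists reduced to the same number of peaks, this pattern was left at 96 pairs, and with at least 50% of the region covered by peaks it was seen at 507.

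The male lists went the other way. Of the 824 pairs with a peak in vehicle-treated males, 563 held one at day 4 (68.3%), 571 at day 6 (69.3%) and 616 at day 8 (74.8%), against 51.3%, 51.5% and 59.2% of single promoters. Of the 83 pairs without one in vehicle, 9, 3 and 7 held one at days 4, 6 and 8 (10.8%, 3.61% and 8.43%). Of single promoters without one in vehicle, 3.77%, 3.44% and 4.08% did. Base composition was not taken into account here either. Among CpG-rich single promoters, 73.8% held a peak in vehicle-treated males and 47.1%, 44.7% and 53.3% at male days 4, 6 and 8. A peak in vehicle and in none of the later lists was seen at 78 pairs (8.60%), against 11.7% of all starts. It was seen at 37 with lists of equal length and at 155 with at least 50% of the region covered. In lists of equal length the percentages of pairs with a peak were 59.2% in vehicle-treated males and 63.1%, 58.5% and 68.1% at days 4, 6 and 8. They were 46.1% in vehicle-treated females and 59.4%, 55.2% and 53.8% at days 4, 6 and 8. Single promoters under the same setting were at 25.3%, 26%, 22.9% and 29.3% in the 4 male lists, vehicle first, and at 17.4%, 27.2%, 27.7% and 27.2% in the female lists. The lower values in males after treatment were therefore not seen once list length was made equal, except at day 6, whose interval (55.3%–61.7%) included the vehicle value. None of these differences between groups has a replicate error. The equal lists were cut by findPeaks score, which did not always follow fold over input. At female day 8, Hspd1/Hspe1 had a fold of 27.4 and a score of 16, the lowest score in that list. How far the values in lists of equal length depend on this ranking was not tested.

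Between the sexes, the vehicle lists shared 509 pairs, with 6 found in females alone and 315 in males alone. These were 56.1%, 0.662% and 34.7% of pairs, against 20.9%, 1.71% and 25.8% of single promoters. In the lists as deposited the order was turned around after treatment, with 270 pairs in females alone and 8 in males alone at day 4 (29.8% and 0.882%, against 22.7% and 1.16% of single promoters). At day 6 these were 312 and 2 (34.4% and 0.221%, against 39.0% and 0.424%), and at day 8 they were 248 and 0 (27.3% and 0%, against 27.2% and 0.373%). With lists of equal length there was no such turn at pairs. Pairs in males alone then outnumbered those in females alone in vehicle (238 and 119) and at day 4 (194 and 161). The same held at days 6 (214 and 184) and 8 (270 and 140). Single promoters under this setting did turn at days 4 and 6. Those in males alone and in females alone were 2538 and 1121 in vehicle and 1835 and 2056 at day 4. At day 6 these were 1847 and 2709. At day 8 they were 2346 and 1969, in the order of vehicle again.

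The share of genes in head-to-head pairs varied with their function. Beside the 9.0% of all genes in such pairs, 25 of 63 replication-dependent histone genes were in pairs (39.7%), 33 of 95 DNA replication and repair genes (34.7%), 27 of 78 mitochondrial ribosomal protein genes (34.6%) and 26 of 83 oxidative phosphorylation subunit genes (31.3%). The shares were 29.7% of aminoacyl-tRNA synthetase genes, 26.5% of genes of the general transcription machinery, 25% of chaperone genes, 15.8% of proteasome subunit genes and 14.3% of cytosolic ribosomal protein genes. At the other end were 2 of 62 genes of the myofiber, 2 of 42 collagen genes and 0 of 38 genes known to respond to glucocorticoids, among them Fkbp5, Per1 and Klf9. These are counts from the annotation, with no test.

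Pairs of the respiratory chain were marked in most lists. Of 27 pairs with an oxidative phosphorylation subunit gene, 22 held a peak in vehicle-treated females and 27 in vehicle-treated males, where the background was 25.8% and 51% of all starts. All 27 held one at female days 4, 6 and 8 and at male day 6, 24 at male day 8 and 17 at male day 4. They included Sdha/Ccdc127 with a subunit of succinate dehydrogenase, Ndufs1/Eef1b2 and Ndufs3/Kbtbd4 with subunits of complex I, and Haus1/Atp5a1 with a subunit of ATP synthase, all with peaks in 8 lists. Cox4i1, a subunit of cytochrome c oxidase, was counted in 2 pairs, with Emc8 and with the predicted gene Gm27021. In all, 15 of the 27 had peaks in 8 lists (55.6%, beside 34.6% of all pairs). The share in vehicle-treated females was 81.5%, beside 56.8% of all pairs, and at male day 4 it was 63.0%, beside 63.1%. Of all pairs, 92.0%, 97.5% and 96.0% held a peak at female days 4, 6 and 8. In vehicle-treated males 90.8% of all pairs did, and at male days 6 and 8 63.3% and 68.7% did.

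Among 26 pairs with a gene of the mitochondrial ribosome, 17 had a peak in vehicle-treated females, 25 in vehicle-treated males and 26 at female days 4, 6 and 8, with 12 in all 8 lists. The shares in vehicle were 65.4% and 96.2%, beside 56.8% and 90.8% of all pairs, and 46.2% had peaks in all 8 lists, beside 34.6%. At female days 4, 6 and 8, 92.0%, 97.5% and 96.0% of all pairs held a peak. Mrpl46/Mrps11 carried a gene of this ribosome on each side, with starts 42 bp apart, and had peaks in 8 lists. Of 20 pairs with a chaperone gene, 10 had peaks in all lists (50%). One of these was Hspb2/Cryab, small heat shock proteins abundant in muscle, which was chosen for mention after seeing its values. Its CpG ratio was low at 0.245, and its fold over input was 3.72 in vehicle-treated females, 7.57, 17.4 and 14.4 at female days 4, 6 and 8, 5.58 in vehicle-treated males, and 8.21, 2.95 and 3.71 at male days 4, 6 and 8.

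Histone pairs stood at the low end. Replication-dependent histone genes are made in dividing cells, and myofibers are postmitotic. The 13 pairs had a median of 2 lists with a peak, against 7 in each distance class of pairs as a whole. H2ac20/H2bc21 alone had peaks in all 8 lists, and H2bc23/H2ac23, H2ac24/H4bc24 and H2ac12/H2bc12 had none. In vehicle-treated males, 3 of the 13 held a peak (90.8% of all pairs did), and at female day 6 10 of them did (97.5% of all pairs). Histone genes are near-identical copies, so that reads may be dropped or split between them, and the part of this in their low counts was not tested. Pairs with a DNA replication and repair gene had a peak in 32 of 32 cases in vehicle-treated males and in the 3 later female lists. Of all pairs, 90.8% held one in vehicle-treated males and 92.0%, 97.5% and 96.0% at female days 4, 6 and 8. In vehicle-treated females 17 of 32 had one (53.1%, against 56.8% of all pairs), and 8 had peaks in all lists (25%, against 34.6%).

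Among pairs described in textbooks as bidirectional, 12 had both genes in the list drawn up for this purpose. Hspd1/Hspe1 (starts at chr1:55087932-55088148), the mitochondrial chaperonin and its co-chaperonin, had peaks in 8 lists. Its fold over input was 6.24 in vehicle-treated females and 17.5, 36.7 and 27.4 at female days 4, 6 and 8, 8.33 in vehicle-treated males, and 13.2, 3.32 and 4.93 at male days 4, 6 and 8. Hadha/Hadhb, which encode both subunits of the trifunctional protein of mitochondrial fatty acid oxidation, had 3.83, 14.4, 37.0 and 36.4 in the female lists in the same order and 5.63, 16.4, 3.72 and 3.90 in the male lists. Both pairs were highest at female days 6 and 8 and lowest or nearly so at male day 6, as were the medians over all pairs.

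Mrps12/Sars2, a ribosomal protein and a tRNA synthetase of the mitochondrion, had peaks in 8 lists with folds between 3.98 (male day 8) and 28.3 (female day 8). Sirt3/Psmd13, a mitochondrial deacetylase and a proteasome subunit, had peaks in 6 lists and none at male days 6 and 8. Mrpl49/Fau had peaks in 6 lists as well, with none at male days 4 and 8. Gart/Son reached the highest fold of these pairs, 98.2 at female day 8, beside 5.61 at male day 8.

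Genes of DNA repair were among these pairs. Atm/Npat, a DNA damage kinase and a coactivator of histone genes, had peaks in 8 lists with folds between 4.60 (vehicle-treated males) and 31.0 (female day 6). Brca1/Nbr1 lacked a peak at male day 8 and Mcm4/Prkdc at male day 6. Fen1/Tmem258 had the highest mean score percentile of the 314 pairs with peaks in all 8 lists (96.6), with folds from 2.71 (male day 6) to 79.8 (female day 8). Prepl/Camkmt also had peaks in 8 lists, with folds from 3.52 to 41.5. Fold over input depends on the depth of both libraries, so these values describe each list and are not a measure of change.

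The single collagen pair, Col4a4/Col4a3, encodes basement membrane chains restricted to a few tissues and had peaks in 3 lists. Its fold was 4.84 and 5.32 at female days 6 and 8 and 4.73 in vehicle-treated males. Both pairs with a myofiber gene had peaks in 8 lists. Tbc1d10b/Mylpf, with the regulatory myosin light chain of fast fibers, had 19.5 in vehicle-treated females, its highest value, and 4.92 to 12.8 in the other lists. Actn3/Zdhhc24, with the α-actinin of fast fibers, had folds from 2.50 (male day 6) to 11.6 (female day 8).

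**Figure D5:**
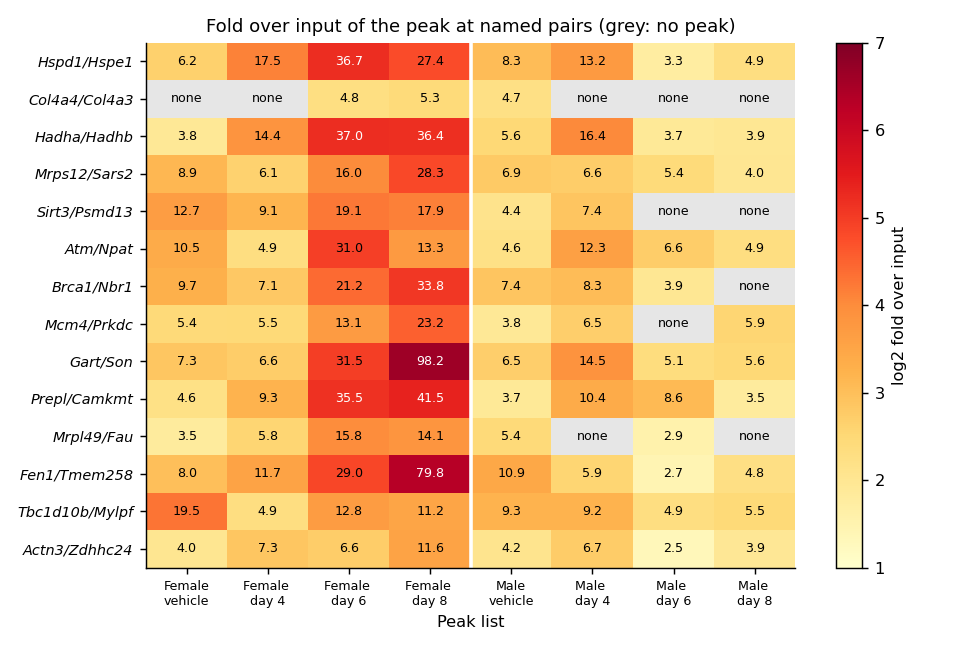
Fold over input of the highest-scoring peak at the textbook pairs and at the pairs with a myofiber gene (rows) in the 8 lists (columns). Colors are on a log2 scale, and grey marks no peak. The highest values are 98.2 for Gart/Son and 79.8 for Fen1/Tmem258, both at female day 8, and Col4a4/Col4a3 has peaks in 3 lists.

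Of the 319 pairs with a peak at all 3 later days but not in vehicle-treated females, Plag1/Chchd7 had the highest score at day 8. Next were Sdhaf2/Cpsf7, Snap47/Jmjd4, Cir1/Scrn3 and Rad51c/Tex14. Sdhaf2 encodes an assembly factor of succinate dehydrogenase. Its promoter, with starts 35 bp apart, had folds of 13.1, 62.3 and 41.0 at female days 4, 6 and 8 and of 17.3, 25.4, 5.21 and 4.33 in the 4 male lists, vehicle first. Thus Plag1/Chchd7, Sdhaf2/Cpsf7 and Cir1/Scrn3 lacked a peak in 1 list only, that of vehicle-treated females.

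Of the 78 pairs with a peak in vehicle-treated males alone among the male lists, Arel1/Fcf1, Serinc4/Hypk, Fam221b/Tmem8b, Rad51c/Tex14 and Tmtc3/Cep290 had the highest scores in vehicle. Rad51c, a gene of homologous recombination, and Tex14, a gene of germ cell bridges, came under both rules. This promoter had folds of 8.32, 17.6 and 20.3 at female days 4, 6 and 8 and of 12.3 in vehicle-treated males, and no peak in the other 4 lists. All 5 of these pairs held peaks at the 3 later days in females. Of all pairs, 92.0%, 97.5% and 96.0% held one in females at days 4, 6 and 8.

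Of the 18 pairs without any peak, 7 were CpG-rich (38.9%) and the median CpG ratio was 0.445, against 0.778 for all pairs. They included 3 histone pairs, Abcg5/Abcg8, which encode the sterol transporter of liver and intestine, and Bend6/Dst, with a gene of a cytoskeletal linker protein. These examples were picked after their values were seen. The closest starts were those of Gm3417/9030025P20Rik (52 bp), Wfdc8/Wfdc6b (74 bp), Slc30a3/Dnajc5g (75 bp), Tcte3/Ermard (81 bp) and Il11/Tmem190 (83 bp). An absent peak means that none passed the authors' threshold at the depth of these libraries.

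Short motifs were counted on either strand in the 300 bp around the midpoint of each pair and from 200 bp upstream to 100 bp downstream of each single start. The ETS motif CCGGAAGT was in 136 pairs (15%, 12.8%–17.5%), against 4.60% of single promoters (4.30%–4.91%) and 8.17% of CpG-rich ones. YY1 (AAGATGGC) was in 8.16% of pairs, against 3.22% and 5.16%, and ACTACAA, a part of the ZNF143 motif, in 6.28%, against 3.33% and 3.17%. NRF1 (GCGCATGC) was in 6.39%, against 3.32% and 5.80%. The intervals of pairs and of all single promoters did not overlap for these motifs. The window of most pairs took in the starts of both genes, and that of a single promoter only its own. The part of this in the percentages of all motifs was not tested.

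The CCAAT box was in 43.0% of pairs, against 37.0% of single and 35.1% of CpG-rich single promoters. The CRE (TGACGTCA) was in 4.52%, against 2.31% and 3.69%. Both were above either class of single promoter, although the CRE's interval in pairs (3.35%–6.07%) held the CpG-rich value, as did that of NRF1 (4.98%–8.18%). The E-box CACGTG was in 10.9%, against 7.62% and 10.9%. The GC box GGGGCGGGG was in 20.6% of pairs, above single promoters (16.2%) and below CpG-rich single promoters (28.1%). TATAAA was in 5.07% of pairs, against 12.3% of single and 4.89% of CpG-rich single promoters. ACANNNTGT, a loose form of the glucocorticoid receptor motif, was in 3.42%, against 5.42% and 2.01%.

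Pairs with and without a motif were also set side by side by their peaks. Peaks in all 8 lists were seen at 34.6% of pairs with the ETS motif and at 34.6% of those without it. For YY1 these were 41.9% and 34.0%, for NRF1 39.7% and 34.3%, and for the CCAAT box 29.7% and 38.3%. A match is a run of letters and not a binding site, and motifs in the same promoter may overlap, as CCAAT and its reverse complement ATTGG do in Jmjd6/Mettl23.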

How the data were processed

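Libraries were H3K27ac ChIP-Seq and input from isolated myofibers, grouped by the labels' descriptions. Per the labels and the study's methods, the authors removed adaptors with homerTools, used Bowtie2 (version 2.2.6 in the submitters' processing notes) for alignment to mm10, and ran HOMER findPeaks for histone marks against input, keeping a fold of at least 2. Each deposited peak has a normalized tag count, which is a signal per 10 M tags, a findPeaks score, which the authors left as a tag number, and a ratio to input (fold). These were used to rank or filter peaks within a list. The p-values in the files were not used. Depth was worked out from the step size of low normalized counts, of which 100% came out whole.

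Starts came from RefSeq NM transcripts of GRCm38.p6, the same assembly as mm10, and 0 of 468934 peaks on its chromosomes ran past a chromosome end. A peak was assigned by an overlap of 1 bp or more. Chromosome X (25 pairs) was left out of the comparisons. Shares have Wilson 95% intervals. Differences between pairs and single promoters were tested with 2-sided exact sign-flip permutation tests over the 8 lists, with Benjamini-Hochberg adjustment over 7 tests. Members, gene lists and rules were chosen with earlier results of these data known. The pairs named are textbook pairs, the 5 highest or closest of each pattern, and those with a myofiber, collagen or glucocorticoid-responsive gene. Sequences of textbook pairs were taken in the order of the list, with 60 to 300 bp between the starts. Alternatives covered the assignment of peaks, list length, starts, distance, flanks and single promoters, and leaving out each list. Steps were tested on simulated data, where 100 of 100 planted pairs were recovered and 3000 of 3000 overlaps were the same as from bedtools 2.31.1. Tools were samtools 1.23.1 and pysam 0.24.0 for sequence, and Python 3.11.15 with scipy 1.17.1, pandas 2.3.3 and numpy 2.4.6.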

Additional observations from a re-analysis of the deposited data

Results flagged for a closer look

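The share of head-to-head promoters with a peak differed from vehicle in opposite directions in the sexes, at every day. In females it was higher than in vehicle by 35.2, 40.7 and 39.3 percentage points at days 4, 6 and 8. The difference of the male lists from vehicle was −27.8, −27.6 and −22.2 points. Single promoters differed in the same directions, by 24.9, 41.9 and 34.1 points in females and by −20.8, −20.9 and −16.9 points in males. With 1 list per group this difference between the sexes was not tested, and the lists differed in length in the same way. In lists of equal length, cut by findPeaks score, the male direction was not kept at days 4 and 8.

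Data outside the comparisons showed a signal as well. Of the 25 head-to-head pairs on chromosome X, which was left out, 6 had a peak in vehicle-treated females, and 17, 21 and 19 did so in females 4, 6 and 8 days after treatment. In males there were 12 in vehicle and 2, 8 and 7 after treatment. Of 842 single promoters on chromosome X, 9.98% had a peak in vehicle-treated females and 29%, 42.9% and 36.3% after treatment, and 19.1% had one in vehicle-treated males and 7.72%, 11.4% and 11% after treatment. As shares of the 25 pairs the counts were 24%, 68%, 84% and 76% in females and 48%, 8%, 32% and 28% in males.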

How the results depend on the processing

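No paired analysis was possible because each group has 1 peak list, in which its libraries are not separate. The difference between head-to-head and single promoters kept its direction and passed the test under all 12 alternatives (32.0 to 39.7 points), among them the share per start, chosen after seeing the data, and without any list (37.7 to 39.3). Ranges without any list were 37.2 to 38.8 in equal windows, 16.2 to 18.3 among CpG-rich and 37.7 to 41.6 among CpG-poor promoters, 7.2 to 9.38 for score percentile, 0.851 to 1.91 for fold and −1.19 to 0.176 for distance, where the direction turned without vehicle-treated females or male day 6. No other alternative changed a call of these comparisons. Leaving out a list raises the smallest possible exact p to 0.0156.

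Counts of patterns moved most. Pairs with a peak in all 8 lists (314) were 134 by the peak's center, 114 with at least 50% of the region covered, 66 with a fold of at least 4 and 51 with lists of equal length. Pairs without any peak (18) were 29 by center, 31 by coverage and 57 with equal lists. The female pattern of no peak in vehicle and one at days 4, 6 and 8 (319) was 507 by coverage and 96 with equal lists. The male vehicle pattern (78) was 155 by coverage and 37 with equal lists. The cause was not tested, apart from the fewer peaks that the equal lists and the fold limit leave by construction.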
